A study of Rattus norvegicus with 6 samples.

Results

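A set of 7 genes of the antioxidant defence was read in rat liver (Rattus norvegicus) after ischemia reperfusion: Nfe2l2, Hmox1, Nqo1, Gclc, Sod1, Sod2 and Cat. They were chosen by name as a pathway and taken by their Ensembl IDs, and 7 of 7 were found among 26689 gene IDs and passed the expression filter, which kept 9932 genes. Nfe2l2 encodes Nrf2, a transcription factor that is held in the cytoplasm and degraded through Keap1 until oxidants or electrophiles release it. Free Nrf2 enters the nucleus and binds antioxidant response elements with small Maf proteins, which raises transcription of enzymes such as Hmox1, Nqo1 and Gclc. Superoxide dismutases (Sod1 and Sod2) and catalase (Cat) form a second line that removes superoxide and hydrogen peroxide, and in liver Cat is a major peroxisomal enzyme. Reperfusion is known to produce a burst of reactive oxygen in this organ.

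Blood flow was stopped by a temporary clamp on the portal vein and then restored, and RNA was taken 1 day later. The groups were healthy rats without treatment (control), rats with the clamp and no drug (IR), and rats with the clamp plus etanercept and nitroglycerin (treated IR). Etanercept, a fusion protein that captures tumor necrosis factor, was dosed at 9 mg/kg from 18 to 16 h ahead of the clamp. Nitroglycerin, which releases nitric oxide, ran as an infusion of 6 µg/kg/min ahead of and through the clamp. Each condition was measured in whole liver and in fresh hepatocytes, which were obtained with collagenase from further rats, and each of the 6 libraries pools RNA of 3 rats. The control animals were healthy and no sham operation is named, so IR and operation cannot be told apart. Strain, sex and age were not given in the sources used here.

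Reads in genes ran from 1945331 in liver control to 7160610 in liver IR, and from 2716994 in hepatocyte treated IR to 5335184 in hepatocyte IR. Levels are read counts brought to a common library size with edgeR's trimmed mean of M values (TMM-scaled CPM), and 3 reads equal 0.40 CPM in the deepest scaled library and 1.39 CPM in the shallowest. Each group is 1 pooled library, so a difference between a pair of libraries has no replicate check, and 95% intervals (exact Poisson for a level, Clopper-Pearson for a ratio) cover counting error only. A gene is called apart between a pair of libraries when its ratio is at least 2-fold and its interval excludes equality. The files give gene IDs without symbols, and 0 of 26689 IDs paired with the reference table, so cell type markers were not read and the part of other liver cells in the whole-liver values was not tested. In these bulk libraries, fewer cells that express a gene and less RNA per cell cannot be told apart.

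The promoters of Nqo1, Cat and Sod2 are shown as examples of unlike behaviour, picked with the results below known. On the TMM scale, Nqo1 was low and Cat high in the hepatocyte IR library, and Sod2 varied least. RefSeq (GRCr8) gave a window for 6 of the 7 genes, Hmox1 excepted, and these 3 were taken among those whose window lies wholly upstream of the annotated gene. Each line holds the 250 bases before the annotated start, 5′ to 3′ on the gene's strand, with matches to 3 motifs in capitals: the antioxidant response element core (TGACNNNGC), the GC box (GGGCGG) and the CCAAT box (CCAAT), on either strand. The windows lie at chr19:52220268-52220517 for Nqo1, chr3:110329527-110329776 for Cat and chr1:50050169-50050418 for Sod2, all on the minus strand.
Nqo1: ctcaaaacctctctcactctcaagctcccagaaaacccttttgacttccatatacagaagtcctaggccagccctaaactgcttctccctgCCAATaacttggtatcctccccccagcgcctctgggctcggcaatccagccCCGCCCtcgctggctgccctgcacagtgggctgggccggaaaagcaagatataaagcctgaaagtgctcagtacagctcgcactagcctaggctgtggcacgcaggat
Cat: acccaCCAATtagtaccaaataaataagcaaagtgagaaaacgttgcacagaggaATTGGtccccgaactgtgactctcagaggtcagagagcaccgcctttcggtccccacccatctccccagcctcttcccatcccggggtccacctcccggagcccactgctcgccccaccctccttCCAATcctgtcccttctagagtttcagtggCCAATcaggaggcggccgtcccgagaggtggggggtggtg
Sod2: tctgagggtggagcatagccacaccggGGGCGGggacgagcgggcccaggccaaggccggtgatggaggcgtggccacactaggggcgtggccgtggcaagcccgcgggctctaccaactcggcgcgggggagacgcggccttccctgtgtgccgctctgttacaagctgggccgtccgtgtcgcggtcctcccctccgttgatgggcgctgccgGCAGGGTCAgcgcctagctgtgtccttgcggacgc
The antioxidant response element core was present in 1 of the 6 windows, that of Sod2, where it lies on the opposite strand, and in 10.1% of all 33469 RefSeq windows of this length. The GC box was present in 5 of 6 windows (30.5% of all), with 6 matches before Nfe2l2 and 0 before Cat. Cat instead had 4 CCAAT boxes, and the CCAAT box was present in 3 of 6 windows (34.0% of all). A match describes letters in these windows and is not a measured site. Sequence outside these 250 bases was not read, so a window without a match does not show that the gene lacks the element.

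On the TMM scale Nqo1 and Hmox1 differed most among the 6 libraries, and Sod2 and Sod1 least. In hepatocytes the highest level was 8.03 times the lowest for Nqo1 and 4.57 times for Hmox1, against 2.20 for Cat, 2.16 for Gclc, 2.01 for Nfe2l2, 1.39 for Sod1 and 1.25 for Sod2. In whole liver the same quotient was 4.30 for Nqo1, 1.91 for Hmox1, 1.73 for Cat, 1.29 for Gclc, 1.24 for Sod1, 1.23 for Nfe2l2 and 1.12 for Sod2. The hepatocyte IR library held the highest level of Nfe2l2, Sod2 and Cat and the lowest of Hmox1 among all 6 libraries, and it was the second lowest for Nqo1 and the second highest for Gclc.

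**Figure D1:**
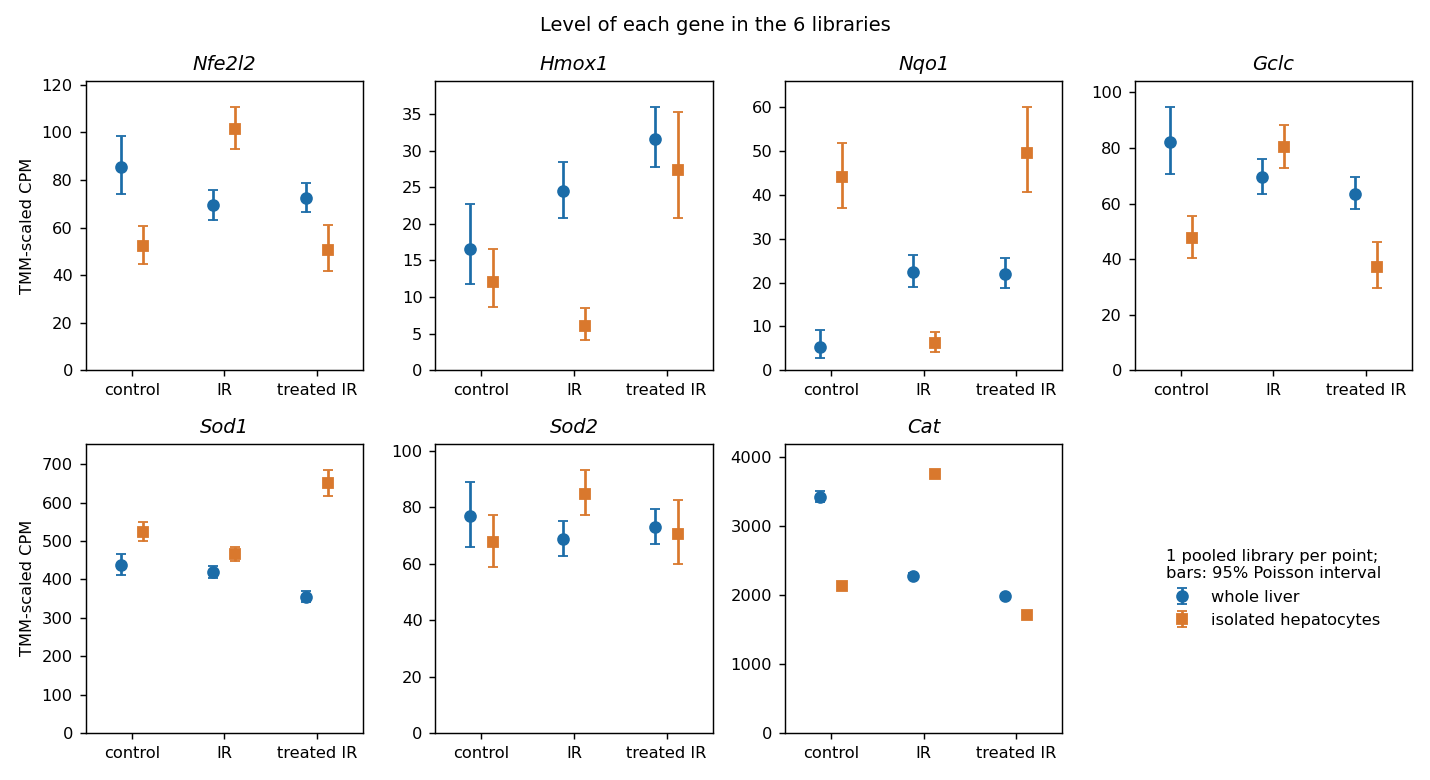
TMM-scaled CPM (y axis, linear from 0, own scale per gene) of each gene in control, IR and treated IR; blue circles are whole liver, orange squares are isolated hepatocytes, 1 pooled library per point, bars are 95% Poisson intervals. In hepatocytes the IR library is high for Nfe2l2 (101.5 CPM), Gclc (80.2) and Cat (3761) and low for Hmox1 (5.99) and Nqo1 (6.19).

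Nfe2l2 (ENSRNOG00000001548), the regulator itself, had 85.5 CPM in control liver, 69.4 after IR and 72.3 after treated IR. Its hepatocyte levels were 52.1 CPM (control), 101.5 (IR) and 50.6 (treated IR). Its whole-liver levels lay between those of the hepatocyte libraries, and the hepatocyte control and treated IR libraries did not differ beyond counting error (ratio 0.970, 95% interval 0.755 to 1.24). The hepatocyte IR library held 1.95 times the control level (1.63 to 2.33), just under the 2-fold rule and past it with library totals alone (2.02) or a minimum count of 50 (2.006), and the treated IR library was 2.01-fold lower than IR (1.63 to 2.49), just past it. In liver, IR stood at 0.811 of control (0.685 to 0.963).

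Hmox1 (ENSRNOG00000014117) encodes heme oxygenase 1, which breaks down heme into biliverdin, iron and carbon monoxide and is abundant in Kupffer cells. Its liver levels were 16.6 CPM for control (38 reads), 24.5 for IR (165 reads) and 31.6 for treated IR (237 reads). Its hepatocyte levels were 12.1 CPM for control (39 reads), 5.99 for IR (31 reads) and 27.4 for treated IR (59 reads). Treated IR thus held the highest Hmox1 level of each preparation. The hepatocyte treated IR level was 4.57 times that of IR (2.91 to 7.30) and 2.26 times that of control (1.48 to 3.48). The liver treated IR level was 1.91 times that of control (1.35 to 2.76), which is not apart by the 2-fold rule, and 1.29 times that of IR (1.06 to 1.59). Hepatocyte IR was 2.02-fold lower than control (1.23 to 3.35), a call that rests on 31 and 39 reads and is lost with scaling by library totals alone (ratio 0.514) and with a minimum count of 50.

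Nqo1 (ENSRNOG00000012772) encodes a quinone reductase that is a standard readout of Nrf2 activity. Liver held 5.24 CPM in control (12 reads), 22.5 after IR (152 reads) and 21.9 after treated IR (164 reads). Hepatocytes held 44.1 CPM in control (142 reads), 6.19 after IR (32 reads) and 49.7 after treated IR (107 reads). The 6 libraries fell into a low pair, liver control and hepatocyte IR, a middle pair, liver IR and treated IR, and a high pair, hepatocyte control and treated IR, and the counting intervals overlapped within each pair and not between pairs. Liver IR held 4.30 times the control level (2.39 to 8.51), while hepatocyte IR was 7.12-fold lower than hepatocyte control (4.83 to 10.8). The liver ratios of Nqo1 rest on the 12 reads of liver control.

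Gclc (ENSRNOG00000006302), the catalytic subunit of the enzyme that limits glutathione synthesis, followed the same order as Nfe2l2 in hepatocytes. Its levels there were 47.5 CPM for control, 80.2 for IR and 37.1 for treated IR, and those in liver were 82.1, 69.5 and 63.5 CPM. Hepatocyte IR held 1.69 times the control level (1.40 to 2.05), and treated IR was 2.16-fold lower than IR (1.70 to 2.78). In liver the IR and control levels of Gclc did not differ beyond counting error on the TMM scale (ratio 0.847, 0.714 to 1.01). With library totals alone this ratio was 0.678 (0.571 to 0.807), an interval that excludes 1.

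Cat (ENSRNOG00000008364), the peroxisomal enzyme that splits hydrogen peroxide, had the most reads of the 7 genes, 3689 to 19450 per library. Liver held 3426.5 CPM in control, 2281 after IR and 1979.7 after treated IR, and hepatocytes 2136, 3761 and 1713 CPM. The hepatocyte IR and liver control libraries were the high ones. Hepatocyte IR held 1.76 times the control level (1.71 to 1.81), and treated IR was 2.20-fold lower than IR (2.12 to 2.28). In liver, IR was 1.502-fold lower than control (1.46 to 1.54) and treated IR 1.73-fold lower (1.68 to 1.78), under the 2-fold rule in either case. With library totals alone, liver IR was at 0.532 of control (0.518 to 0.547) and treated IR at 0.607 (0.591 to 0.624), still not apart. The choice of scaling thus moved these ratios beyond their counting intervals.

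Sod1 (ENSRNOG00000002115), the copper and zinc superoxide dismutase of the cytoplasm, had 438.6 CPM in control liver, 419.1 after IR and 354.9 after treated IR. Its hepatocyte levels were 524.2 CPM (control), 466.0 (IR) and 650.0 (treated IR), so on the TMM scale each hepatocyte library lay above every liver library. Sod2 (ENSRNOG00000019048), the manganese enzyme of mitochondria, ranged from 67.7 CPM in hepatocyte control to 84.9 in hepatocyte IR, with all 3 liver libraries (68.8 to 76.8 CPM) inside this range. Of its 9 ratios between libraries on the TMM scale, only those of hepatocyte IR to hepatocyte control (1.25, 1.06 to 1.48) and to liver IR (1.23, 1.08 to 1.41) had intervals that exclude 1. With library totals alone, Sod2 in liver IR was at 0.716 of control (0.601 to 0.857), an interval that also excludes 1. The same held for treated IR vs IR, at 1.39 in liver (1.23 to 1.58) and 0.680 in hepatocytes (0.561 to 0.819). The RefSeq table lists a Sod2 pseudogene, Sod2-ps1, so Sod2 reads could be split or lost in counting.

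IR was compared with control, the question being the state of these genes 1 day after the injury. In liver, 1 of 7 genes was apart, Nqo1, higher, where 3.76% of all 9932 genes were apart and higher and 2.23% apart and lower. In hepatocytes, 2 of 7 were apart, Nqo1 and Hmox1, both lower, where 9.53% of all genes were higher and 6.93% lower. With library totals alone or a minimum count of 50, Hmox1 was not apart, and Nfe2l2 was apart and higher. The median log2 ratio of the 7 genes was -0.16 in liver and 0.33 in hepatocytes, beside 0.044 and 0.015 over all genes. For Nfe2l2, Hmox1, Nqo1 and Cat the intervals in liver and in hepatocytes lay on opposite sides of 1. Nqo1 and Hmox1 were above control in liver and below it in hepatocytes, and Nfe2l2 and Cat the reverse. The log2 ratio in hepatocytes minus that in liver was -4.94 for Nqo1 (95% counting interval -5.95 to -3.92), -1.57 for Hmox1 (-2.42 to -0.72), 1.26 for Nfe2l2 (0.92 to 1.61), 1.40 for Cat (1.35 to 1.46), 0.996 for Gclc (0.63 to 1.36), 0.49 for Sod2 (0.14 to 0.83) and -0.10 for Sod1 (-0.24 to 0.033). With 1 library per group there is no test of these differences beyond counting error.

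Treated IR was compared with IR, the question being the effect of the drug pair; with 1 pool per group the ratios describe how these pools differ. In liver 0 of 7 genes were apart, where 1.82% of all genes were apart and higher and 0.946% lower, and the 7 ratios ran from 0.847 for Sod1 to 1.29 for Hmox1. In hepatocytes 5 of 7 were apart, where 11.2% of all genes were higher and 12.1% lower. Nqo1 (8.03-fold, 5.36 to 12.3) and Hmox1 were higher in treated IR, and Nfe2l2, Gclc and Cat were lower, so the regulator and Gclc were on one side and the remaining Nrf2 targets on the other. These hepatocyte ratios share the IR library with the IR vs control ratios, in which Hmox1 and Nqo1 were low and Nfe2l2, Gclc and Cat high, so the comparisons are not independent. Between hepatocyte treated IR and control, a pair without that library, 1 of 7 genes was apart. Scaling by library totals alone moved all liver log2 ratios of treated IR to IR by 0.39, which put Nqo1, Gclc, Sod1 and Cat above 1, and moved the hepatocyte ones by -0.29 with the same 5 calls.

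Treated IR was compared with control to set the treated pools beside the healthy ones. In liver 1 of 7 genes was apart, Nqo1, at 4.18 times the control level (2.33 to 8.26), where 4.81% of all genes were apart and higher and 2.39% lower. In hepatocytes 1 of 7 was apart, Hmox1, higher, where 4.23% of all genes were higher and 4.09% lower. Hmox1 stood at 1.91 and 2.26 times control in liver and hepatocytes, and scaling by library totals alone gave 2.005 and 1.92. Nqo1 in hepatocytes was at 1.13 times control (0.869 to 1.46), a difference within counting error. Cat was below control in liver and hepatocytes, at 0.578 (0.562 to 0.594) and 0.802 (0.770 to 0.835) of the control level.

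**Figure D2:**
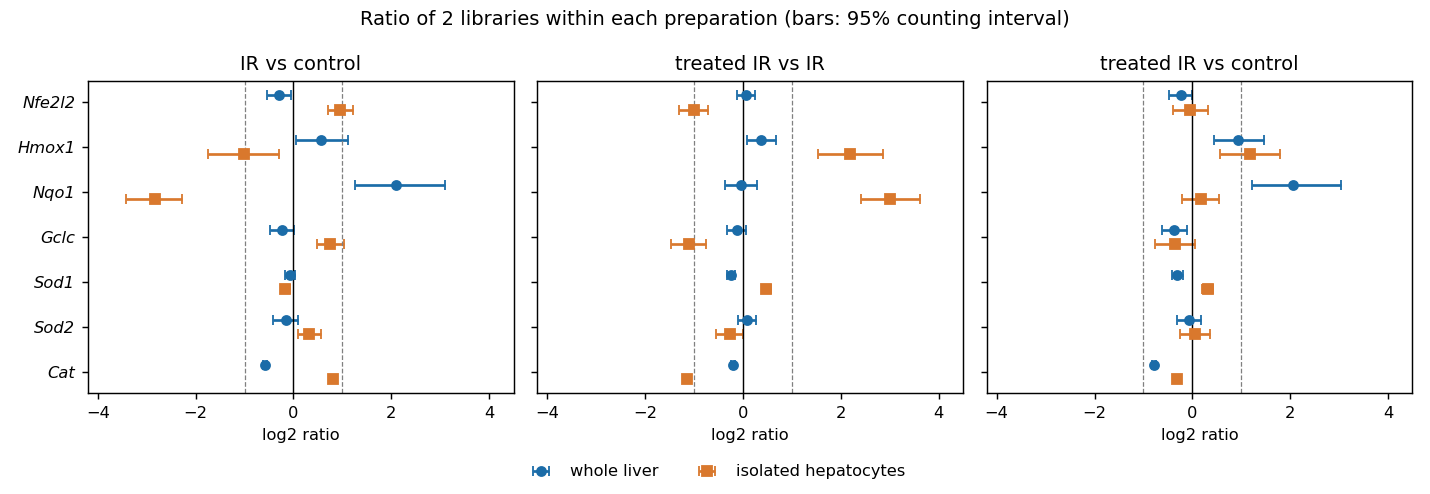
Log2 ratio of a pair of libraries (x axis) for each gene (y axis) in whole liver (blue circles) and isolated hepatocytes (orange squares), with 95% Clopper-Pearson counting intervals as bars and dashed lines at 2-fold. For IR vs control, Nqo1 lies at 4.30-fold higher in liver and 7.12-fold lower in hepatocytes, and for treated IR vs IR the liver points lie near 0 while 5 hepatocyte points lie past 2-fold.

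Condition effects common to liver and hepatocytes were tested over the 6 libraries with edgeR's quasi-likelihood method in a model that also holds preparation, which leaves 2 residual degrees of freedom. None of the 7 genes was called for IR vs control (edgeR adjusted p = 0.996 for each), where edgeR called 0% of all 9932 genes, and an unadjusted p under 0.05 was found for 0 of the 7 and for 3.34% of all genes. The DESeq2 and limma-voom fits called 0 of 7 and 0% of all genes, with 0 of 7 at an unadjusted p under 0.05. Hmox1 had the smallest p for treated IR vs IR, with a fitted log2 ratio of 1.13 (SE 0.42) and the same direction in 2 of 2 preparations, but an edgeR adjusted p of 0.981 over all genes. Hmox1 was 1.05 above control on the log2 scale in treated IR (SE 0.43, edgeR adjusted p = 0.9998), in 2 of 2 preparations. Both comparisons use the same treated IR libraries, so they are not separate support. For treated IR vs IR and for treated IR vs control, edgeR called 0 of 7 members and 0% of all genes, and Hmox1 alone of the 7 had an unadjusted p under 0.05 in each, as did 2.99% and 2.32% of all genes. Limma-voom called 0 of 7 and 0% of all genes in either comparison, and DESeq2 called 0 of 7, beside 0.0101% of all genes for treated IR vs IR and 0% for treated IR vs control. At an unadjusted p under 0.05 limma-voom had 1 of 7 in each, and DESeq2 had 1 for treated IR vs IR and 0 for treated IR vs control.

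The spread of this fit includes any response that differs between liver and hepatocytes. For IR vs control, 9.53% of all genes were apart and higher in hepatocytes and 6.93% lower, beside 3.76% and 2.23% in liver. For treated IR vs IR the shares were 11.2% and 12.1% in hepatocytes, beside 1.82% and 0.946% in liver. The liver IR library had 1.63 alignments that were not unique per read in genes, against 0.759 to 0.938 in the other libraries. The part of this in the fits was not tested. Without liver IR, edgeR called 3.97% of all genes for IR vs control and 6.51% for treated IR vs IR, so the gain in calls ran across the genome. In that fit hepatocytes alone stood for IR, and the Nqo1 log2 ratio was -2.50 for IR vs control. For treated IR vs IR the log2 ratio was 3.40 for Nqo1 and 2.12 for Hmox1. A fit with a single IR library holds no spread between IR libraries, so its calls have no replicate support for an effect of IR or treatment. Without the hepatocyte IR library, when liver alone stood for IR, the Nqo1 log2 ratio was 1.24 for IR vs control and -0.37 for treated IR vs IR, and 0 of 7 genes were called in either, beside 0.228% and 0.179% of all genes.

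**Figure D3:**
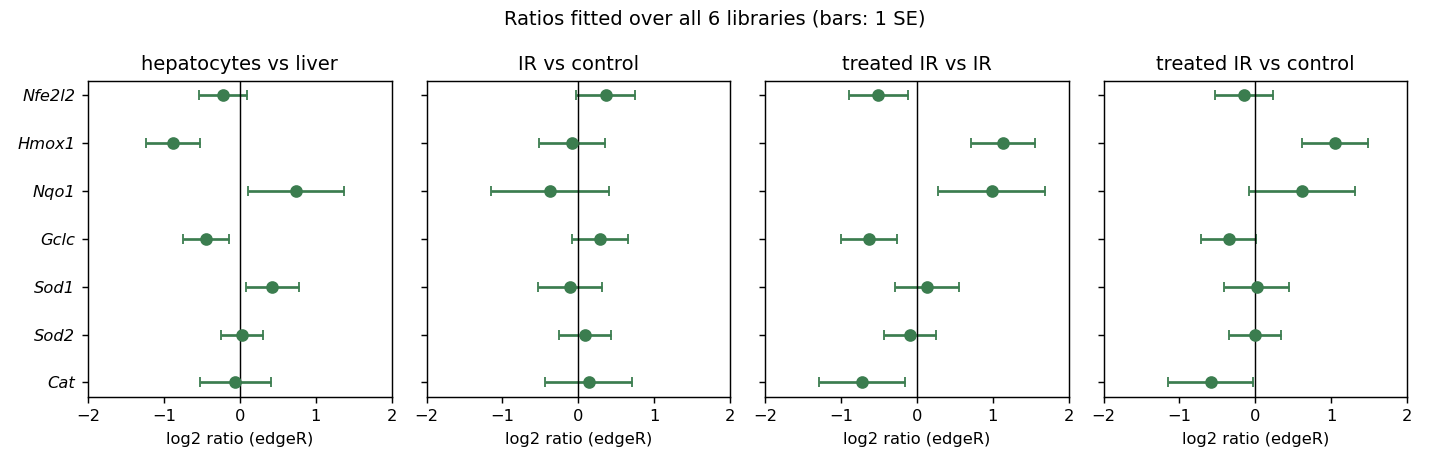
Log2 ratios (x axis) of each gene (y axis) fitted by edgeR over all 6 libraries for hepatocytes vs liver, IR vs control, treated IR vs IR and treated IR vs control; bars are 1 SE. None of the 7 genes passed an adjusted p of 0.05, and Hmox1 lies farthest above 0 for treated IR vs IR (1.13) and for treated IR vs control (1.05).

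The comparison of hepatocytes and whole liver shows in which preparation each gene was higher. Hepatocytes were isolated with collagenase from further rats, so cell type, isolation and animals cannot be told apart in it. Over all conditions 0 of 7 genes were called by edgeR, where 0.433% of all genes were called higher and 4.90% lower in hepatocytes, while DESeq2 called 0 of 7 and 4.44% of all genes and limma-voom 0 of 7 and 5.73% (0 and 1 of 7 at an unadjusted p under 0.05). Of the 7 genes 1, Hmox1, had an unadjusted p under 0.05 by edgeR, as did 10% of all genes, a similar share. Its mean was 24.2 ± 7.53 CPM for liver and 15.2 ± 11.02 CPM for hepatocytes (SD over 3 conditions, n = 3), with a fitted log2 ratio of -0.88 (SE 0.36, edgeR adjusted p = 0.328), lower in 3 of 3 conditions. Sod1 was higher in hepatocytes in 3 of 3 conditions, with a mean of 546.7 ± 94.0 CPM beside 404.2 ± 43.8 CPM (SD over 3 conditions, n = 3; log2 ratio 0.43, SE 0.35, edgeR adjusted p = 0.902). With library totals alone Sod1 in the controls turned to 0.947 of the liver level.

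Within single conditions, Nqo1 was 8.42 times the liver level in control hepatocytes (4.67 to 16.7) and 2.27 times in treated IR (1.76 to 2.91), but 3.64-fold lower in IR (2.47 to 5.51). Hmox1 was 4.08-fold lower in hepatocytes than in liver in IR (2.77 to 6.20), and its control and treated IR ratios, 0.730 (0.455 to 1.17) and 0.866 (0.640 to 1.16), lay within counting error. In control 1 of 7 genes was apart, where 3.87% of all genes were higher and 7.22% lower. In IR 2 of 7 were apart, both lower, where 5.90% of all genes were higher and 11.5% lower, and in treated IR 1 of 7 was apart, where 6.88% were higher and 12.8% lower. Nfe2l2, Gclc and Cat were lower in hepatocytes in control (0.610, 0.579 and 0.623 of liver) and in treated IR (0.699, 0.585 and 0.865) and higher in IR (1.46, 1.15 and 1.65), all under the 2-fold rule. The library totals alone moved the control and treated IR ratios by -0.34 and -0.64 (log2), which put Nfe2l2 and Gclc past 2-fold lower in both conditions and Cat in control, and took the treated IR call from Nqo1 (1.45). The test of hepatocytes vs liver depended on which conditions entered it. Leaving out either library of a condition takes the other out of this contrast, so both fits compare the same remaining pairs of libraries and are not separate support. Without the IR pair Nqo1 was called higher in hepatocytes, with a log2 ratio of 1.85 when hepatocyte IR was left out (edgeR adjusted p = 9.18e-06, 7.50% of all genes called) and 1.91 when liver IR was (edgeR adjusted p = 3.20e-06, 6.68% called). Without the treated IR pair Hmox1 was called lower, at -1.26 when hepatocyte treated IR was left out (edgeR adjusted p = 0.0333, 4.36% of all genes called) and -1.30 when liver treated IR was (edgeR adjusted p = 0.0266, 3.97% called).

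**Figure D4:**
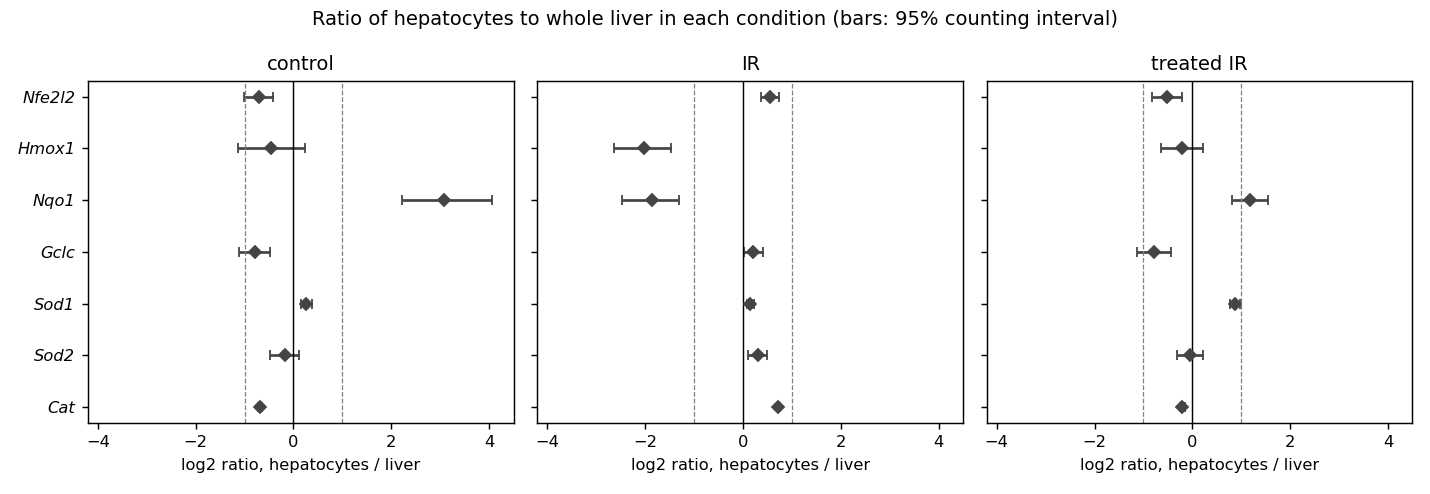
Log2 ratio of hepatocytes to whole liver (x axis) for each gene (y axis) in control, IR and treated IR, with 95% Clopper-Pearson counting intervals as bars and dashed lines at 2-fold. Nqo1 lies at 8.42-fold higher in control, 3.64-fold lower in IR and 2.27-fold higher in treated IR.

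The genes whose pattern over the 6 libraries was most like that of Hmox1 and of Nfe2l2 were found by Pearson's r of log2 CPM among 5683 other genes with a mean of at least 10 CPM. For Hmox1 these were ENSRNOG00000015733 (r = 0.998) and ENSRNOG00000002630 (r = 0.978). ENSRNOG00000015733 moved over a narrower range, from 49.3 CPM in hepatocyte IR to 81.0 CPM in liver treated IR. For Nfe2l2 they were ENSRNOG00000001317 (r = 0.990) and ENSRNOG00000002705 (r = 0.988), and ENSRNOG00000001317 was also highest in hepatocyte IR, at 27.7 CPM against 6.52 in hepatocyte control. An r of at least 0.9 was reached by 45 genes for Hmox1 and by 110 for Nfe2l2. With 6 libraries and so many genes such values are a description of these libraries, whose shared depth and scaling also enter them.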

How the data were processed

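Poly(A)-selected RNA of 6 pools was sequenced on an Ion Torrent Proton, per the labels' protocols and the series' design text. The authors deposited raw counts of reads for each Ensembl gene ID, and the submitters' processing notes name TopHat2 2.0.13 and HTSeq 0.6.1. Genome build, annotation and strand setting were not given in the sources used here. Reads of genes that overlap, lie antisense or have close copies may therefore have been split or dropped. Summary lines that name no gene were left out (reads outside genes were 6.23% to 8.34% of uniquely aligned reads). The labels name no replicates, so p-values measure only the spread between these libraries.

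The filterByExpr function of edgeR (minimum count 10, grouped by condition) left 9932 genes with 99.6% to 99.9% of reads, and libraries were TMM-scaled. Ratios of library pairs are unshrunk; median log2 ratios use a prior count of 2. Tests used edgeR's quasi-likelihood test with preparation and condition as additive terms and Benjamini-Hochberg adjustment over all genes at 0.05. The fit's common biological coefficient of variation was 0.288. An interaction of preparation and condition cannot be fitted with residual degrees of freedom. The software was R 4.3.3 with DESeq2 1.42.0, edgeR 4.0.16 and limma 3.58.1, and the code was tested on simulated data.

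The members and lists were chosen with earlier results of these data known. The pairs of ID and symbol came with the list of 7 genes and were not checked, because the RefSeq table holds the 7 symbols but 0 of 26689 Ensembl IDs. For the same reason a list of other Nrf2 pathway genes and lists of cell type markers, fixed by symbol, were not read. Named genes are the 7 members and, for Hmox1 and Nfe2l2, the 2 genes most alike in pattern. The alternatives tried were a 4-fold rule, a prior count of 0.5, no filter, a minimum count of 50, scaling by DESeq2's size factors or by library totals alone, limma-voom, the DESeq2 Wald test, and fits without each library.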

Additional observations from a re-analysis of the deposited data

Results flagged for a closer look

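For 6 results the liver and hepatocyte libraries moved in opposite directions, with counting intervals on opposite sides of 1. The difference between preparations was not tested, since each group is 1 library. For IR vs control the ratio of Nqo1 was 4.30 in liver and 0.140 in hepatocytes, and that of Hmox1 was 1.47 and 0.495. For the same comparison Nfe2l2 was at 0.811 in liver and 1.95 in hepatocytes, and Cat at 0.666 and 1.76. With library totals alone Nqo1, Nfe2l2 and Cat kept intervals on opposite sides of 1, while the liver interval of Hmox1 (1.18, 0.825 to 1.73) included 1, so that its opposition was lost. For treated IR vs IR the ratio of Sod1 was 0.847 in liver and 1.39 in hepatocytes, and with library totals alone it was 1.11 and 1.14, so that the opposition was lost. For treated IR vs control Sod1 was at 0.809 and 1.24, and with library totals alone at 0.850 and 1.05, where the hepatocyte interval (0.979 to 1.13) included 1 and the opposition was lost.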

How the results depend on the processing

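Counts of genes apart stood within 1.5 times of those reported with DESeq2's size factors, no filter, a minimum count of 50 and a prior count of 0.5. With library totals alone, genes apart between hepatocytes and liver went from 4 to 8 over the 3 conditions (4 in control, 2 in treated IR), and those of treated IR vs control were 2 in liver and 0 in hepatocytes. With a 4-fold rule 5 of 10 calls were left within preparations and 2 of 4 between them: in hepatocytes 1 for IR vs control, 2 for treated IR vs IR and 0 for treated IR vs control, and between preparations 1 in IR and 0 in treated IR. Under library totals alone 32 of 63 single-gene ratios moved beyond their counting intervals, and under a minimum count of 50, 4 of 63. DESeq2, limma-voom, other scalings and other filters called 0 of 7 genes in each of the 4 tests. Uncalled fitted log2 ratios near 0 changed sign with library totals alone for Sod2 (-0.29 for hepatocytes vs liver, -0.022 for IR vs control) and Sod1 (-0.082 for treated IR vs control), and with a minimum count of 50 for Sod2 (-0.042 for hepatocytes vs liver, 0.0030 for treated IR vs control).

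Leaving out 1 library in turn called 0 to 1 genes for hepatocytes vs liver, 0 to 1 for IR vs control, 0 to 2 for treated IR vs IR and 0 to 0 for treated IR vs control, while over all genes the same fits called 390 to 755, 3 to 402, 0 to 659 and 0 to 37 (530, 0, 0 and 0 with all libraries). The log2 ratios that changed sign then ran, for hepatocytes vs liver, from -0.66 to 0.039 for Nfe2l2, -0.25 to 1.91 for Nqo1, -0.16 to 0.14 for Sod2 and -0.49 to 0.27 for Cat. For IR vs control they ran from -0.27 to 0.91 for Nfe2l2, -1.08 to 0.61 for Hmox1, -2.50 to 1.53 for Nqo1, -0.25 to 0.75 for Gclc, -0.33 to 0.063 for Sod1, -0.15 to 0.30 for Sod2 and -0.49 to 0.70 for Cat. For treated IR vs IR they ran from -1.06 to 0.098 for Nfe2l2, -0.37 to 3.40 for Nqo1, -0.22 to 0.40 for Sod1 and -0.31 to 0.11 for Sod2. For treated IR vs control they ran from -0.49 to 0.25 for Nfe2l2, -0.43 to 2.91 for Nqo1, -0.34 to 0.28 for Sod1 and -0.16 to 0.15 for Sod2. These fits have fewer libraries, and the remaining library of a condition is assumed to vary like the others; further causes were not tested. No paired analysis was possible because each group is 1 pooled library with no replicate number in the labels. Depth limits Nqo1 and Hmox1 most, with 12 and 38 reads in liver control.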
